A study of Mus musculus with 29 samples.

Results

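The regions described here are the binding sites of CDX2-HA in NIH-3T3 cells, an established line of mouse embryonic fibroblasts. They were chosen as all peaks of the CDX2-HA chromatin immunoprecipitation sequencing (ChIP-seq) list, 25278 of the 304922 peaks in the 28 lists of the study. Each list came from a stable NIH-3T3 line in which doxycycline (500 ng/ml, overnight) induced a transcription factor that carried HA tags at its C-terminus, and the chromatin was pulled down with an antibody against HA. The 28 lists cover 24 constructs. CDX2-HA has 1 list, as have 19 of the 23 others. The exceptions, with 2 lists each, are SOX2-HA, OCT4-HA, FOXA1-HA and BHLHB8-HA. All lines therefore share the NIH-3T3 background, the inducible system and the antibody, and differ in the factor that was induced. The level of that factor differed too: the paper calls the levels roughly comparable but reports a range of several fold. Among the 23 others, FOXA1_RR-HA and FOXA1_SW-HA are mutants of FOXA1 made to weaken its non-specific contacts with DNA, and 1 line expressed SOX2-YPET beside OCT4-HA. Each of these counts as a construct of its own below, so the 23 are not 23 different factors. The sites are those of an introduced, tagged factor in a fibroblast line, and whether that line was a single clone is not given in the sources used here.

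CDX2 is a homeodomain transcription factor of the caudal family. In the embryo it acts in the trophectoderm and in the extension of the posterior body, where caudal factors regulate Hox genes, and in the adult it maintains the intestinal epithelium. Its homeodomain prefers T-rich sites with the core TTTAT or TTTAC, and a CDX site in the promoter of the sucrase-isomaltase gene Sis is among its long known targets. Fibroblasts are not a tissue in which CDX2 normally acts.

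The lists give the start and end of each peak in mm10 and no height, read count or p-value, so the depth behind a peak is unknown. With a single CDX2-HA list there is no replicate error for any value below and no difference between constructs was tested. Intervals are exact (Clopper-Pearson) 95% intervals over peaks or genes and cover counting error only. Replicates 1 and 2 overlapped 11.9% and 5.15% of CDX2-HA peaks for BHLHB8-HA, and 13.9% and 4.32% for SOX2-HA. Libraries of the same factor can thus lie far apart, also in length. Replicates 1 and 2 had 46842 and 61991 peaks for BHLHB8-HA, and 25049 and 5692 for SOX2-HA. A shorter list can overlap fewer peaks, as for SOX2-HA, but for BHLHB8-HA the longer list overlapped fewer.

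CDX2-HA peaks were marked by the CDX sequence, here TTTATGG or TTTATTG on either strand. The following stretches show it at 8 sites where no other construct had a peak, chosen by a fixed rule near genes of the intestine, the Hox clusters, the trophoblast and the posterior axis. Each is read 5′ to 3′ from RefSeq's GRCm38.p6 sequence, 87 bp long, with every CDX sequence in capitals.
Sis, chr3:72967869-72967955, plus strand: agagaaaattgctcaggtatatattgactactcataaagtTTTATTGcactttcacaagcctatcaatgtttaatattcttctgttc
Hoxa3, chr6:52182942-52183028, plus strand: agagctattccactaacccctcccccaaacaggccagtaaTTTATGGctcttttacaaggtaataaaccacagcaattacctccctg
Hoxb8, chr11:96281745-96281831, plus strand: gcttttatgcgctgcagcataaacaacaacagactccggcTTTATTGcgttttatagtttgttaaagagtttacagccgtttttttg
Hoxa7, chr6:52223740-52223826, minus strand: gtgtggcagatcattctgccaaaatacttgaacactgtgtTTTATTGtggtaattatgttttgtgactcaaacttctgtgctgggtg
Hoxc6, chr15:103010053-103010139, plus strand: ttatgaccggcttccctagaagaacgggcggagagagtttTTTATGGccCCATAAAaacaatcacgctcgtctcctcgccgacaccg
Tfap2a, chr13:40726392-40726478, minus strand: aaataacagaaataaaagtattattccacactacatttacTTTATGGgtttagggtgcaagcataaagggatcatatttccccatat
Wnt5a, chr14:28501391-28501477, plus strand: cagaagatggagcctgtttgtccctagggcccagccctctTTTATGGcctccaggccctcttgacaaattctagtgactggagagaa
Meis1, chr11:19012933-19013019, plus strand: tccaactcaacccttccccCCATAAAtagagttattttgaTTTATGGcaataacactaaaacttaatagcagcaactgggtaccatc

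The Sis peak (197 bp) had its midpoint 0.064 kb upstream of the start of Sis, which encodes the brush border enzyme sucrase-isomaltase, and the CDX sequence lay 15 bp from the midpoint. The Hoxb8 peak was centred 0.08 kb upstream of that gene and the Hoxc6 peak 0.513 kb downstream of a Hoxc6 start. At Hoxc6 the 2 CDX sequences face each other, and at Meis1 the pair faces outwards. The Tfap2a and Meis1 peaks lay in introns, and the Wnt5a peak lay between genes, 3.28 kb upstream of the Wnt5a start.

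In the central 200 bp of the peaks, 11350 of 25278 (44.9%, 44.3 to 45.5%) held the CDX sequence. Of 23379 control windows of the same width, taken 5 kb downstream of each midpoint and free of peaks of any list, 8.91% (8.54 to 9.28%) held it. The share in peaks was 5.04 times that in controls. Since the peaks were poorer in G and C (36.2% of bases) than the controls (41.2%), the control windows were also weighted to the GC content of the peaks, which put their share at 11.3%. In the other 27 lists the share ranged from 1.72% (THAP4-HA) to 8.52% (replicate 1 of SOX2-HA).

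TTTATGG stood in 20.7% of peak windows against 3.16% of control windows, and TTTATTG in 29.1% against 5.90%. Other members of the same family were likewise more frequent in peaks. TTTATGA was found in 28.15% against 5.04%, TTTATTA in 30.5% against 8.07%, and the rarer TTTACGA in 2.74% against 0.317%, a ratio of 8.65. Any of the 7 CDX-like words was present in 78.4% of peak windows and 24.0% of control windows, so 5449 peaks (21.6%) held none of them in their centre. The general homeodomain word TAATTA differed less, 13.99% against 7.66%, and 11.3% in the GC-weighted controls. Those controls held TTTATGG at 3.65%, TTTATTG at 7.92%, TTTATGA at 6.93% and TTTATTA at 11.8%. The share with any of the 7 words was not weighted.

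The same letters led when no word was chosen beforehand. Of the 8192 words of 7 letters (counted with their complements), 5289 stood in at least 1% of peak windows. Their median ratio of peaks to controls, without GC weighting, was 0.942, and 199 of them (3.76%) had a ratio of at least 2. The 10 with the largest ratios were TTTACGA (8.65), TTACGAC (7.85), TTATGAC (7.73), TTATTGC (7.35), TTTATGG (6.56), TTATTAC (5.73), TTTATGA (5.58), TTATGGC (5.55), TTACGAT (5.375) and TTTATTG (4.93). Each of them holds TTAT or TTAC followed by G or T and then by A or G. The first word with neither TAT nor TAC on either strand was the AP-1 sequence TGACTCA, in place 18 of the order. It stood in 11.5% of peak windows and 2.86% of controls. The letters beside TTTATGG also differed from those in controls: T preceded it at 50.5% of its 5749 occurrences in peaks and at 34.3% of 749 in controls, and C followed it at 33.4% against 21.2%.

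The CDX sequence was concentrated at the peak centre. Within 20 bp of the midpoint there were 3.74 CDX sequences per bp per 1000 peaks, against 0.495 at 500 to 1000 bp, a ratio of 7.56. The AP-1 sequence was also denser at the centre than far from it, 0.5975 against 0.199, but its profile was flat across the middle of the peak, with 0.589 at 80 to 100 bp where CDX was at 1.915. The TEAD word CATTCC differed little between centre and edge (0.687 against 0.574). In peaks with a CDX sequence the nearest copy lay a median of 35 bp from the midpoint, compared with 47 bp in control windows.

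**Figure D1:**
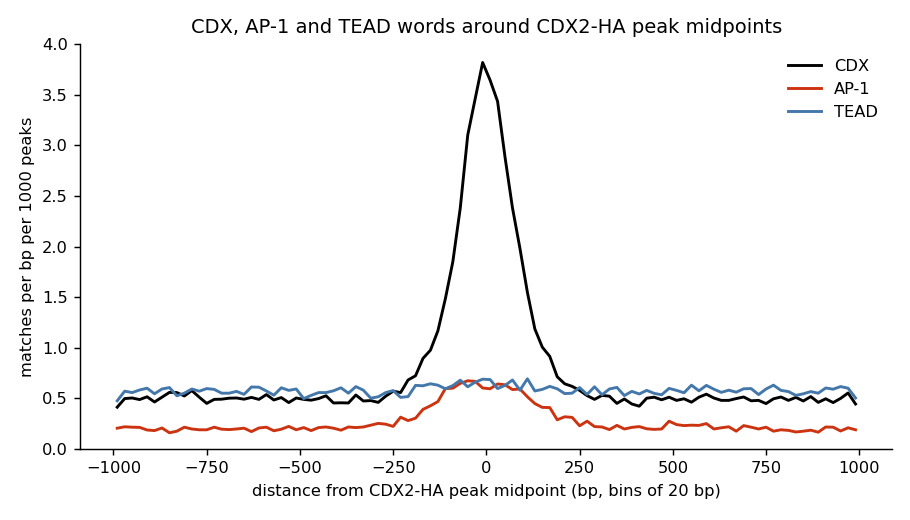
Matches to the CDX, AP-1 and TEAD sequences (vertical axis, per bp per 1000 peaks) by distance from the midpoint of the CDX2-HA peaks (horizontal axis, bp, in bins of 20 bp). CDX stands out at the centre, 3.74 within 20 bp against 0.495 beyond 500 bp, while AP-1 forms a low plateau and TEAD is nearly level.

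Peaks often held more than 1 copy. Of all peaks, 2592 (10.25%) had at least 2 CDX sequences in the central window and 376 had at least 3, whereas 0.428% of control windows had at least 2. Among 3018 pairs of adjacent copies in peaks, the most frequent arrangement was a tandem pair in the same direction with starts 8 bp apart, at 125 pairs (4.14%). The next was a pair facing away from each other with starts 13 bp apart, at 61 pairs (2.02%). Controls held 103 pairs in all, too few to compare single spacings. Of the CDX sequences in the genome, 18829 of 1266537 (1.49%) lay in a CDX2-HA peak.

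Most CDX2-HA peaks stood alone. No peak of any other construct shared a base with 19652 of them (77.7%, 77.2 to 78.3%), the highest share of all 28 lists. In the other lists with over 10000 peaks, the share ranged from 8.93% (DLX1-HA) to 75.85% (DUXBL-HA). Such shares depend on which constructs were included: DLX1-HA has its relative DLX6-HA among the others, while CDX2-HA has no other caudal factor. A further 1723 CDX2-HA peaks (6.82%) overlapped 1 other construct, 2183 (8.64%) 2 to 4, 1457 (5.76%) 5 to 9, and 263 (1.04%) at least 10. At 2 of them all 23 other constructs had a peak.

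With duplicate lists merged, SOX2-HA overlapped 3554 CDX2-HA peaks (14.1%), the largest number of any construct. This place rested on replicate 1 (13.9%), since replicate 2 alone overlapped 4.32%. DLX6-HA and DLX1-HA, homeodomain factors of the distal-less family, overlapped 13.3% and 11.6%, and BHLHB8-HA, a basic helix-loop-helix factor, overlapped 12.9%. Peaks of the same number and width spread evenly over the chromosomes would have overlapped 0.729%, 0.591%, 0.563% and 2.71%, so the measured shares were 19.3, 22.5, 20.7 and 4.75 times as high. These constructs led by number of overlaps, not by ratio. Some shorter lists had higher ratios, as SOX15-HA (32.1), HLF-HA (31.4) and FOXA1-HA (24.7). Others had lower ones, as EBF1-HA (11.05) and RHOX11-HA (9.78). Taken singly, the share of BHLHB8-HA peaks that met a CDX2-HA peak was 8.41 times even placement in replicate 1 and 2.53 times in replicate 2. DUXBL-HA, a double homeodomain factor with 24318 peaks, overlapped 4.27%, which was 6.63 times even placement. These partners came together: of the 3554 peaks shared with SOX2-HA, 426 (11.99%) were shared with SOX2-HA and no other construct, and for DLX6-HA the figure was 219 of 3359 (6.52%). SOX15-HA had 1 such peak among 1093.

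TEAD1-HA was the exception. Its 14959 peaks overlapped 52 CDX2-HA peaks (0.206%, 0.154 to 0.270%), 0.438 times the 0.469% that even placement gives. TEAD1-HA was also the list with the largest promoter share, and 19.2% of the 52 common sites were promoters. The list of OCT4-HA pulled down from cells that also overexpressed SOX2-YPET overlapped 126 CDX2-HA peaks (0.4985%), 2.94 times even placement, and 0.980 times once the sites common to at least 10 other constructs were left out.

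**Figure D2:**
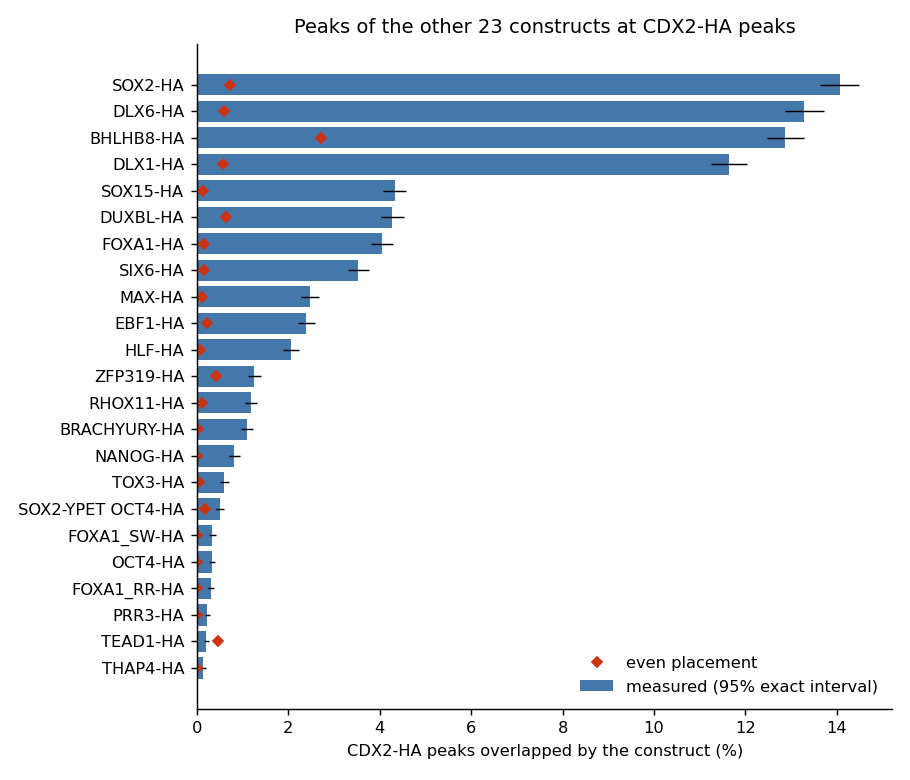
Share of CDX2-HA peaks that overlap at least 1 bp of a peak of each other construct (bars, %, with exact 95% intervals), with duplicate lists merged, and the share expected from even placement (diamonds). SOX2-HA, DLX6-HA, BHLHB8-HA and DLX1-HA lie between 11.6 and 14.1%, and TEAD1-HA lies below its even placement of 0.469%.

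Short lists met CDX2-HA largely at places that many constructs share. CDX2-HA peaks overlapped 53 of the 62 PRR3-HA peaks (85.5%), 67.2% of the merged OCT4-HA peaks and 52.5% of the 396 NANOG-HA peaks. Of the 56 CDX2-HA peaks with a PRR3-HA peak, 4 overlapped under 10 other constructs, and of the 207 with a NANOG-HA peak 62 did. Of 726 merged places with peaks of at least 10 constructs, 452 (62.3%) held a CDX2-HA peak. A place joins overlapping peaks, so its CDX2-HA peak need not itself overlap 10 other constructs, as 263 CDX2-HA peaks did. The like share of another construct is not given here. The widest CDX2-HA peaks included such places: 1743 bp at Hmgb1, which encodes a chromatin protein, and 1642 bp at the ribosomal protein gene Rpl21, each with peaks of 20 other constructs. The next widest, 1578 bp in an intron of Sycp1, overlapped none.

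Sequence content varied with sharing. The CDX sequence was found in 48.8% (48.1 to 49.5%) of the peaks with no other construct, 40.2% with 1, 32.0% with 2 to 4, 23.4% with 5 to 9 and 9.89% (6.56 to 14.15%) with at least 10, close to the 8.91% of control windows. At least 2 copies were present in 12.01% of the unshared and 4.11% of the shared peaks. The AP-1 sequence, bound by FOS and JUN dimers that are active in fibroblasts, took a different course: 8.36%, 15.8%, 24.2%, 29.7% and 15.6% over the same classes. The RUNX word TGTGGT stood in 15.6% of unshared and 22.6% of shared peaks.

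**Figure D3:**
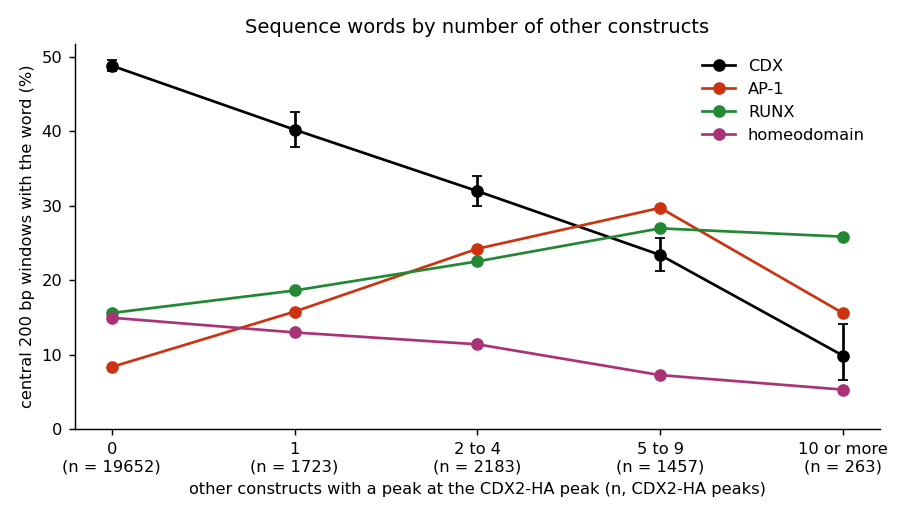
Share of central 200 bp windows with each sequence (vertical axis, %) by the number of other constructs with a peak at the CDX2-HA peak (horizontal axis), with exact 95% intervals for CDX. CDX goes from 48.8% with no other construct to 9.89% with at least 10, and AP-1 is highest, 29.7%, with 5 to 9.

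Shared peaks were wider (median 307 bp against 259 bp) and richer in G and C (39.8% against 35.2%), so the comparison was repeated in 5 classes of peak width with about equal numbers. In each class a larger share of the unshared peaks held the CDX sequence: 50.0% against 27.4% in the narrowest (169 to 201 bp) and 42.1% against 28.8% in the widest (393 to 1743 bp). The part that GC content has in this difference was not tested. Seen from the partners' side, the peaks of replicate 1 of SOX2-HA held the CDX sequence at 19.3% where they met a CDX2-HA peak and at 6.76% elsewhere. For DLX6-HA these shares were 17.7% and 5.68%, and for DUXBL-HA 14.5% and 7.49%. Among the 5449 CDX2-HA peaks with no CDX-like word in their centre, the word with the largest ratio to like controls was the AP-1 sequence, at 17.7% against 2.91%. It was followed by TTATAAC (9.82% against 1.94%) and TTATAGC (9.42% against 1.95%).

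Few CDX2-HA peaks lay in promoters, but they were not remote for the genome. The median distance of all CDX2-HA peaks to the nearest start of a coding transcript (GENCODE vM21) was 38.4 kb (37.4 to 39.4 kb). The quartiles were 12.4 and 123.1 kb, and 7293 peaks (28.85%) lay over 100 kb away. Of the known genome, 29.5% lies 100 to 500 kb from a coding transcript start and 10.4% farther out. These classes held 23.2% and 5.69% of the peaks. The midpoint of 553 peaks (2.19%, 2.01 to 2.38%) was within 1 kb of such a start, where 2.44% of the known genome lies. This was the lowest promoter share of the 28 lists. The other long lists had 3.59% (DUXBL-HA) to 45.3% (TEAD1-HA), and their medians ran from 3.67 to 54.2 kb.

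The deficit was confined to the first kb among the distance classes up to 100 kb. Relative to the genome, peaks were 0.893 times as frequent within 1 kb of a start, 1.27 times at 1 to 5 kb, 1.25 times at 5 to 10 kb, 1.225 times at 10 to 50 kb and 1.06 times at 50 to 100 kb. Beyond that they were sparse, at 0.786 times for 100 to 500 kb and 0.548 times farther out. Introns of coding genes held 12228 peaks (48.4%, against 34.8% of the genome), the space between genes 10146 (40.1% against 53.4%), untranslated exons 418 (1.65% against 1.22%) and coding exons 92 (0.364% against 1.11%). The CDX sequence was about as frequent in promoter peaks (48.1%, 43.9 to 52.4%) as in peaks at least 100 kb away (47.2%). Repeats were less frequent than in the controls, on reads that the authors had filtered for unique alignment: 17.9% of bases in the central windows were masked as repeats, compared with 32.1%.

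**Figure D4:**
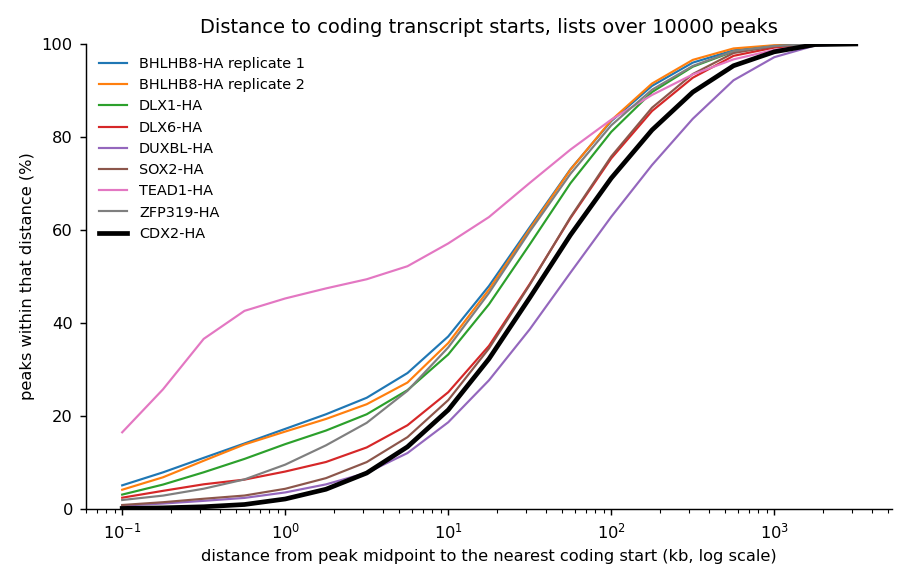
Share of peaks (vertical axis, %) within a given distance of the nearest coding start (horizontal axis, kb, log scale) for the 9 lists with over 10000 peaks. CDX2-HA (black) has the lowest curve within 1 kb, at 2.19%, and at 10 and 100 kb only DUXBL-HA lies below it.

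Peaks came in loose groups. Another CDX2-HA peak lay within 10 kb of 9658 peaks (38.2%, 37.6 to 38.8%), 1.94 times the 19.7% of even placement. At 1 kb the share was 8.26%, 3.77 times even placement, and at 100 kb it was 90.9%, 1.05 times. The other long lists ranged from 1.11 to 2.71 times at 10 kb, so CDX2-HA lay inside their range. With neighbours joined at 10 kb, 15620 peaks stayed single, 3011 groups had 2 peaks, 962 had 3 or 4, 94 had 5 to 9 and 1 had more.

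The largest groups were of opposite kinds. The 18 peaks at Sfi1, a centrosomal gene (chr11:3119026-3174310), all overlapped other constructs, and 16 of them overlapped at least 10. None of the 9 peaks at chr5:15036302-15061554 was free of other constructs, and 1 of the 9 at 1600014C10Rik on chr7 was. By contrast, 8 of 9 peaks across Hoxc9, Hoxc8, Hoxc6 and Hoxc5 (chr15:102971988-103014800) and 7 of 9 at the metalloreductase gene Steap2 (chr5:5685697-5735848) belonged to CDX2-HA alone.

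Along the chromosomes the density, 9.55 peaks per Mb on average, was highest on chromosomes 15 (1.82 times the average), 19 (1.6 times) and 11 (1.54 times), and lowest among the autosomes on 14 (0.550 times) and 7 (0.622 times). The X chromosome had 0.210 times the average, and the Y chromosome held 4 peaks. The order in the other long lists was similar but not the same (chromosome 11 had their highest median density, 1.83 times the average): their Spearman rho with CDX2-HA over 20 chromosomes was 0.838 to 0.961, and over 2585 bins of 1 Mb it was 0.513 to 0.789. All these lists come from NIH-3T3 chromatin, and copy number was not measured in the files used here. Bins of 1 Mb held a median of 8 CDX2-HA peaks, 261 held none, and the fullest, 3 to 4 Mb and 5 to 6 Mb of chromosome 5, held 63 each. These bins were dense in other lists too: DUXBL-HA had 37 and 42 peaks in them, and DLX1-HA 34 and 36. Gatad1, named below, lies in 3 to 4 Mb, and Steap2 and part of Cdk14 lie in 5 to 6 Mb.

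Of 21853 coding genes, 4519 (20.7%) had a CDX2-HA peak within 10 kb of a start, and 3719 (17%) had a peak of CDX2-HA alone. Most of them, 3297, had a single peak, 849 had 2 and 373 had at least 3. The share grew with gene length, from 12.9% of genes under 10 kb to 36.3% of those of 100 to 300 kb, and was 31.5% in the 565 genes over 300 kb, whose median density over the body with 10 kb on each side was also lower (0.621 against 1.201 peaks per 100 kb). By number of peaks over the same span, very long genes led: Macrod2 with 56 peaks (50 of CDX2-HA alone), Cdk14 and Gm37240 with 38, Celf2 with 35, and Gmds and Nav3 with 33. Rabgap1l had 31, and Csmd3, Immp2l and Pde4d had 30. Per 100 kb, among genes with at least 5 peaks, the densest were 1600014C10Rik (26.2), Sfi1 (19.6), Hoxc6 (17.8), Itln1 (16.1) and Ak3 (14.85). All peaks of Sfi1 and Itln1 were shared with other constructs, and all 7 of Ak3, an adenylate kinase gene, were not.

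Hox genes, the patterning genes of the body axis, stood highest among 13 gene lists. Of 39 Hox genes, 25 (64.1%, 47.2 to 78.8%) had a CDX2-HA peak within 10 kb of a start, beside 20.7% of all coding genes, and 20 (51.3%) had a peak of CDX2-HA alone. The genes lie close together and share peaks, so they are not independent. BHLHB8-HA replicate 2 had peaks at 87.2% of Hox genes and 65.5% of all coding genes, and replicate 1 at 61.5% and 51.6%. ZFP319-HA had peaks at 76.9% of Hox genes and 22.8% of all coding genes, and TEAD1-HA at 74.4% and 40.9%. SOX2-HA replicate 1 had them at 12.8% and 21.4%, DLX6-HA at 15.4% and 20.6%, and DUXBL-HA at 20.5% and 20.9%.

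The HoxC cluster held 12 CDX2-HA peaks, 10 of them with no other construct, and HoxA held 11, 6 of them with no other construct. With 10 kb on each side these are 88.4 and 87.8 peaks per Mb. HoxB had 6 and HoxD 4. In HoxC, SOX2-HA replicate 1 had 2 peaks, DLX1-HA and DLX6-HA had 1 each and DUXBL-HA had none, while BHLHB8-HA replicate 2 had 10 and TEAD1-HA had 7. Elsewhere other lists had more peaks than CDX2-HA or as many. In HoxB, BHLHB8-HA had 12 and 13, ZFP319-HA 11 and TEAD1-HA 10 beside the 6 of CDX2-HA. In HoxD, BHLHB8-HA replicate 2 had 9, TEAD1-HA 8 and ZFP319-HA 5 beside 4, and in HoxA BHLHB8-HA replicate 2 had 11, as CDX2-HA had. Several peaks lay at starts: 0.088 kb upstream of Hoxa7 (chr6:52218711-52218887), 0.09 kb upstream of Hoxb6 (chr11:96292224-96292548, shared with ZFP319-HA), 0.08 kb upstream of Hoxb8 (chr11:96281691-96281959) and 0.031 kb upstream of Hoxd4 (chr2:74721761-74722133). Hoxa3, annotated over 44.3 kb with starts far apart, had 7 peaks within 10 kb of its starts, and Hoxa7, Hoxb8 and Hoxc6 had 4 each. Those of Hoxa3 include peaks whose nearest start is that of another gene, such as Hoxa4 or Hoxa7.

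The intestinal list did not stand above the background. Of 39 genes, 8 (20.5%, 9.30 to 36.5%) had a peak within 10 kb, beside 20.7% of all coding genes. Beside Sis, the list's members with peaks included Klf4, a factor of differentiated epithelium, with 2 peaks, the nearer 2.22 kb upstream and shared with BHLHB8-HA, DLX1-HA, DLX6-HA and SOX2-HA. Gata4, an endodermal factor, had a peak of CDX2-HA alone (299 bp) 2.14 kb downstream of a start.

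Cdx2 itself (chr5:147300805-147307270, minus strand) held 2 CDX2-HA peaks. The first (chr5:147302540-147303193, 654 bp) covered 641 bp of intron 2 and 13 bp of exon 2 and overlapped no other construct. The other (chr5:147306638-147306910, 273 bp) lay inside exon 1, 0.496 kb downstream of the start, and overlapped a TEAD1-HA peak. Exon 1 holds 538 coding bp, and the line also carries the introduced coding sequence of Cdx2. Reads from that copy can align to the same exon, and its part in this peak was not tested.

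The lists of the embryonic roles of CDX2 had shares near the background. Peaks lay near 4 of 22 trophoblast genes (18.2%), 6 of 25 posterior axis genes (24.0%) and 1 of 16 pluripotency genes (6.25%), with intervals that all contained 20.7%. The trophoblast genes were Krt8, Gcm1 and Tead4 with 2 peaks each and Tfap2a with 1. Both Gcm1 peaks were of CDX2-HA alone, and both Tead4 peaks were shared. All 6 posterior axis genes had a peak with no other construct, among them Wnt5a, the homeodomain gene Meis1 (9 peaks over the gene with 10 kb on each side) and the growth factor gene Fgf8, 7.87 kb from its start. The pluripotency gene was Klf2, with 2 peaks.

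Of 30 fibroblast genes, 12 (40%, 22.7 to 59.4%) had a CDX2-HA peak, beside 20.7% of all coding genes, and 8 (26.7%) had a peak of CDX2-HA alone, beside 17%. Other lists had peaks at larger shares of the same genes: replicate 1 of BHLHB8-HA at 86.7% (51.6% of all coding genes), replicate 1 of SOX2-HA at 76.7% (21.4%) and DLX6-HA at 66.7% (20.6%). Col3a1, a fibrillar collagen, had 3 peaks, of which the one 0.034 kb upstream of its start was shared with 7 other constructs. Acta2, smooth muscle actin, had 1 peak, shared with 5. Snai2 had 2 peaks of CDX2-HA alone, and Lum had 2, of which 1 was. AP-1 genes had 4 of 10 (Jun, Junb, Fosl1 and Atf3, with 1 peak each) and Wnt pathway genes 5 of 24 (20.8%). The list named Hippo target genes had 4 of 11, with 13 symbols listed and 11 found. It holds pathway members such as Tead4 and Wwtr1 beside targets. Ankrd1 led the Hippo list with 3 peaks. Myc had a single peak, 1.76 kb upstream and shared with 5 constructs, and Fzd7 had 2.

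Of the remaining lists, ribosomal protein genes had 22 of 72 (30.6%), but only 10 (13.9%) by a peak of CDX2-HA alone, against 17% of all coding genes. A peak at Rps2 overlapped 19 other constructs, while the 2 at Rpl4 overlapped none. Cadherin genes had 4 of 23 near a start (17.4%) and 14 (60.9%) over the gene body with 10 kb on each side, with 10 peaks in Cdh18. The latter share was 33.1% of all coding genes and 73.1% of genes of 100 to 300 kb, and the median cadherin gene was 145 kb long. Developmental factor families had 29 of 159 (18.2%), led by Gatad1 with 5 peaks, which the name pattern included although it is not a GATA factor, then Sox6 with 4, Pax9 with 3 and Foxn3 with 2. Olfactory receptor genes had 90 of 1092 (8.24%, 6.68 to 10.0%). They are short, with a median of 5.985 kb, and of all coding genes under 10 kb 12.9% had a peak. Their expression was not measured here.

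**Figure D5:**
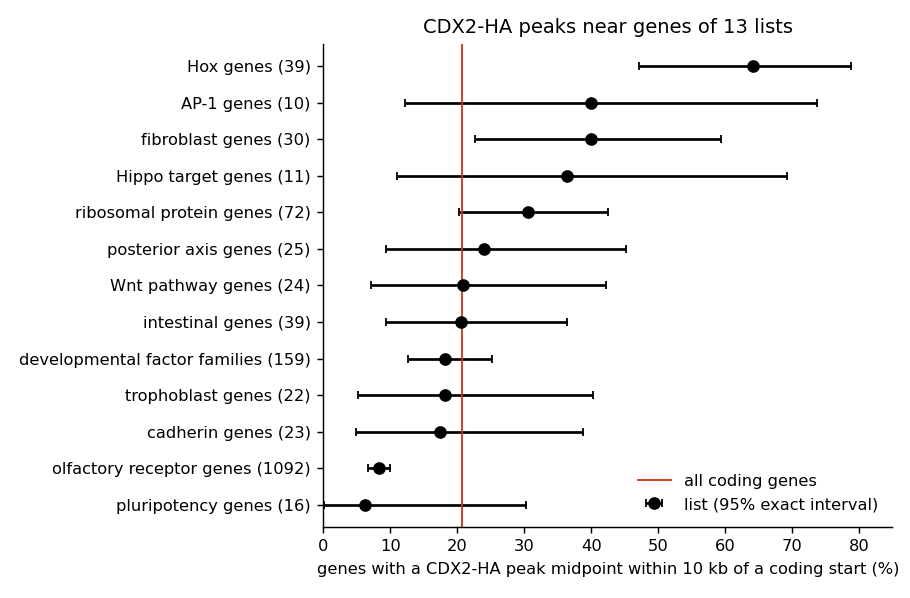
Share of the genes in each list with a CDX2-HA peak midpoint within 10 kb of a coding start (horizontal axis, %, with exact 95% intervals and the number of genes in brackets), and the share of all coding genes (red line, 20.7%). Hox genes are at 64.1% and olfactory receptor genes at 8.24%, and most other intervals contain the line.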

How the data were processed

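The 28 deposited files hold peak positions (chromosome, start and end), which the authors made from paired-end ChIP-seq reads of each line. Per the labels and methods, reads were aligned uniquely to mm10 with STAR (2.5.3a), duplicate reads were removed with Picard, and peaks were called per sample with MACS2 (2.1.1.20160309). The authors dropped peaks found at peaks of the input or in the ENCODE blacklist. Peaks were called on each library with its own depth, so longer lists need not mean more binding. The input sample of the 29 labelled samples was not used here. Starts are printed counted from 1.

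Overlap, distance, neighbour and sequence measures were computed with Python (3.11.15), numpy (2.4.6) and scipy (1.17.1). An overlap was 1 bp or more, and duplicate lists of a construct were merged. Even placement was calculated from the number and width of peaks per chromosome. Sequences came from RefSeq's GRCm38.p6 and genes from GENCODE vM21. The counting functions were tested on simulated data. No statistical test was made, since CDX2-HA has 1 list. The peaks, gene lists and words were chosen with earlier results of these data known. Named genes are, per list, the up to 4 members with the most CDX2-HA peaks within 10 kb, with ties broken by distance, the 10 genes with the most peaks in their bodies, the 5 densest with at least 5 peaks, and Cdx2. Also named are the 5 largest groups, the 3 widest peaks, the 10 words with the largest ratio, and for the printed sequences up to 8 CDX2-HA peaks of no other construct with the CDX sequence. Hox peaks at starts, genes that illustrate a list and word 18 were picked after their values were seen.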

Additional observations from a re-analysis of the deposited data

How the results depend on the processing

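Of 19 alternatives over 7 results, 4 left the value inside the 95% interval of the reported value and 15 moved it. The share of CDX2-HA peaks without another construct was 84.1% with a reciprocal overlap of 50%, and 78.3 to 80.8% when either replicate of each duplicated construct was left out. The promoter share was 6.05% within 2.5 kb. The median distance was 19.6 kb to the starts of all annotated genes and 35.85 kb for peaks of at least 300 bp. The share with a neighbour was 22.4% at 5 kb, 57.4% at 20 kb and 20.4% among peaks of at least 300 bp, of which there are fewer. The CDX sequence stood in 53.3% of whole peaks and 41.85% of central windows of peaks of at least 300 bp. Its excess over controls, 36.0 percentage points, was 33.6 with GC weighting. Coding genes with a peak were 12.5% at 5 kb, 51.2% at 50 kb and 17.0% with peaks of CDX2-HA alone. Shorter or longer distances change these shares by construction, and the cause of the other shifts was not tested. No paired analysis was possible because no result comes from a test and CDX2-HA has 1 list. Peak heights and read depth were not used here, so weak and strong sites could not be told apart.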
